A study of Homo sapiens with 6 samples.

Results

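The kinesin motor family was followed in the human glioblastoma line LN-229, an established cell line, after treatment labelled sh-JMJD1C. Members were the protein-coding genes whose symbol is KIF followed by a number, or KIFC1, KIFC2 or KIFC3, found through their Ensembl IDs: 42 of the 58174 genes in the tables, 19762 of which are protein-coding. KIFBP and KIFAP3, which bind kinesins but are not motors, were left out. There were 3 libraries labelled sh-JMJD1C, a name that usually stands for knockdown of JMJD1C by short hairpin RNA, and 3 labelled control-NC. All 6 were made from the nuclear-enriched RNA of the same line after removal of ribosomal RNA. The labels used here give neither the hairpin sequence nor the time after treatment. Nor do they say whether the 3 libraries of a group were grown apart, so the p-values reflect spread among these libraries, which may be technical.

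Kinesins are motor proteins that hydrolyse ATP to move along microtubules, most of them toward the plus end. Some build and pull apart the mitotic spindle, push its poles apart, carry chromosomes and finish cell division, and their transcripts are made mainly by cells in G2 and mitosis. Others carry vesicles, mitochondria and RNA granules in cells that are not dividing, and others shape cilia or trim microtubule ends. In glioblastoma the mitotic motor KIF11 has been studied as a drug target. For the comparison the family was divided by these textbook roles into 14 mitotic, 15 transport, and 13 ciliary and other kinesins.

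The promoters of 5 members are shown: KIF20A, KIF22 and KIF2C from the mitotic class and KIF5B from the transport class because these were the kinesins that passed a test on reads, and the mitotic KIF4A as a further example that holds both elements described here. Each stretch is the 150 bases before the RefSeq transcription start (GRCh38.p14), read in the direction of the gene. They lie at chr5:138178962-138179111 (plus strand), chr16:29790601-29790750 (plus strand), chr1:44739687-44739836 (plus strand), chrX:70289954-70290103 (plus strand) and chr10:32056426-32056575 (minus strand), in the order KIF20A, KIF22, KIF2C, KIF4A and KIF5B. The KIF20A stretch lies inside the span of that gene in the GENCODE annotation, which begins at base 138178719, so the 2 sources differ in its start. Capitals mark matches, on either strand, to CCAAT (the box bound by NF-Y, which reads ATTGG on the other strand), and to TTTGAA or TTCGAA, the letters of the cell cycle homology region found in many genes of G2 and mitosis.
KIF20A promoter: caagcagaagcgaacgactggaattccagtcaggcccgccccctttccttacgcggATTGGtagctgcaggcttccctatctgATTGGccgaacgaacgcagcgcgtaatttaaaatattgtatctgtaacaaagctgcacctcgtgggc
KIF22 promoter: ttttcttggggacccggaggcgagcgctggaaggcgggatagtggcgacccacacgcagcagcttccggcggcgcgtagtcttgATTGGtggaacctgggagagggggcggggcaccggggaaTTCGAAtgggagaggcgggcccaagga
KIF2C promoter: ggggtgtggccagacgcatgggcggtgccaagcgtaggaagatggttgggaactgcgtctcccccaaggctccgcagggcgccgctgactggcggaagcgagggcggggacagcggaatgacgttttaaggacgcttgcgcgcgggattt
KIF4A promoter: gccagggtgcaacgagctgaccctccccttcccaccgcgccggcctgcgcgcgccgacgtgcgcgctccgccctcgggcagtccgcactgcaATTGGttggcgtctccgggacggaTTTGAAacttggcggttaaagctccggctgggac
KIF5B promoter: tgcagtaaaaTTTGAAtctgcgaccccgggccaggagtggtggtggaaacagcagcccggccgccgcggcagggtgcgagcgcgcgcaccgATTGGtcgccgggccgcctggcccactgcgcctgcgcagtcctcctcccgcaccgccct

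Of the 42 members, 34 had a promoter in the RefSeq table, and 8 were not matched (KIF13B, KIF19, KIF21B, KIF26B, KIF27, KIF5A, KIFC2 and KIFC3). Within 250 bases before the start, CCAAT was found in 11 of 14 mitotic promoters (78.6%), 3 of 11 transport promoters (27.3%) and 3 of 9 ciliary and other promoters (33.3%), beside 33% of all 27305 promoters of the same length in the table. TTTGAA or TTCGAA was found in 6 of 14 mitotic promoters (42.9%), 1 of 11 transport promoters (9.09%) and 0 of 9 others, beside 14.6% of all promoters. The pair of elements together was found in 5 of 14 mitotic promoters (35.7%), beside 5.24% of all promoters. In KIF4A the TTTGAA letters began 34 bases and the CCAAT letters 58 bases before the start, and in KIF22 TTCGAA began 27 bases and CCAAT 66 bases before it. KIF20A held CCAAT at 94 and at 67 bases before its start, and KIF2C held neither element in this window. KIF5B, a transport kinesin, also held both elements, with TTTGAA at 140 bases before its start. For 20 of the 34 kinesins, the bases just after the RefSeq start were found in a GENCODE transcript of the same gene. For the rest the start was not matched in this way, so the positions hold for the RefSeq start only. These matches describe letters in a window and nothing about binding.

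The FPKM tables (fragments scaled to gene length and library total) allowed whole reads to be recovered, and the totals were 1676755, 1919675 and 1660561 reads in sh-JMJD1C 1 to 3, against 544442, 2004255 and 2960454 reads in control 1 to 3. JMJD1C itself, a histone demethylase-like protein of the jumonji family (chr10:63167221-63521850, minus strand), had 1.03, 0.251 and 0.657 scaled FPKM in the sh-JMJD1C libraries, against 3.97, 2.25 and 4.28 in the controls, with no overlap between the groups. Its log2 fold change was -1.82 (SE 0.41) on FPKM (limma, adjusted p = 0.117; two-sided exact permutation p = 0.1, the smallest that 3 libraries against 3 can give), and -2.49 (SE 0.51) on recovered reads (limma-voom, adjusted p = 0.0253). With trends over transcript length and GC content removed it was -1.20 and did not pass (limma-voom adjusted p = 0.0574). The glial and mesenchymal marker VIM averaged 793 scaled RPM in sh-JMJD1C libraries and 715 in controls, and CD44 279.9 and 258, while GFAP (1.58 and 0.76) and SOX2 (0.234 and 0.0815) were near 0 and S100B had no reads. Summed leukocyte markers stayed between 0.702 and 3.41 scaled RPM in sh-JMJD1C libraries and between 0 and 2.93 in controls, with CD3E at 0, and the neuronal markers between 3.97 and 5.48 and between 0 and 8.95. The endothelial markers stayed between 0.702 and 2.27 in sh-JMJD1C libraries and at 0 in controls, and PECAM1 had no read anywhere. The epithelial keratin KRT18 averaged 1837 scaled RPM in sh-JMJD1C libraries and 507 in controls, with EPCAM at 0 in all sh-JMJD1C libraries. The libraries also differed in composition: the signal recognition particle RNA family RN7SL took 1.18%, 15.7% and 18.5% of reads in sh-JMJD1C 1 to 3, against 0.378%, 0.59% and 1.77% in control 1 to 3, and the nuclear RNA MALAT1 took 0.292%, 0.091% and 0.185%, against 1.73%, 1.25% and 2.40%. The part of these differences in the results below was not tested.

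Among the kinesins that passed the test, those that rose were mitotic and the gene that fell was a transport motor. On recovered reads, 3 mitotic kinesins rose in sh-JMJD1C cells (KIF20A, KIF2C and KIF22) and 1 transport kinesin fell (KIF5B), out of 30 members with enough reads to test (limma-voom, adjusted p below 0.05), where 5.52% of all 11877 genes passed, 3.71% upward and 1.81% downward. On FPKM, the deposited unit, 0 of 28 members tested passed (limma, adjusted p below 0.05), where 0.196% of all 17869 genes passed (0.0616% upward and 0.134% downward); 7 of the 28 (25%) had an unadjusted p below 0.05, beside 20.3% of all genes, as did 12 of the 30 on reads (40%), beside 30.8% of all genes. With protein-coding genes alone in the FPKM fit, the same 4 kinesins passed as on reads, where 9.1% of 10062 genes passed (5.47% upward and 3.64% downward). The direction of each of these 4 genes was the same in the FPKM and the read fit. The reads were computed from the same FPKM values, so this is no separate support. In bulk RNA such as this, a change in the number of cells that express a gene and a change in its RNA per cell cannot be told apart.

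KIF20A (MKLP2) carries the chromosomal passenger complex to the midzone of the anaphase spindle and is needed for cytokinesis. The gene (chr5:138178719-138187715, plus strand) had 197, 164 and 136 scaled RPM (reads scaled by the median-ratio method to a common library total, expressed as RPM) in sh-JMJD1C 1 to 3, against 27.7, 38.6 and 31.8 in control 1 to 3. Every sh-JMJD1C library stood above every control, and the 13 reads of the shallow control 1 gave a 95% Clopper-Pearson interval of 14.8 to 47.4 scaled RPM, below the lowest sh-JMJD1C library (136, interval 117 to 156). The means were 165 ± 30.8 in sh-JMJD1C libraries and 32.7 ± 5.51 in controls (SD, n = 3 each), a ratio of 5.06. The fit on reads put the rise at 4.87-fold (log2 2.28, SE 0.37, limma-voom adjusted p = 0.0118), while the FPKM fit gave 2.12 (SE 0.33, limma adjusted p = 0.0712). The gene span overlaps BRD8 and CDC23 on the opposite strand, which had 220 and 98 reads in sh-JMJD1C libraries and 277 and 189 reads in controls, and no source used here says whether strand was used in counting.

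KIF2C (MCAK) removes tubulin from microtubule ends at centromeres and corrects faulty attachments of chromosomes. It lies at chr1:44739818-44767767 (plus strand) and had 102, 253 and 221 scaled RPM in sh-JMJD1C 1 to 3, against 38.4, 48.8 and 59.1 in control 1 to 3. The groups did not overlap, but sh-JMJD1C 1 was less than the other 2 libraries of its group. The means of 192 ± 79.5 in sh-JMJD1C libraries and 48.8 ± 10.4 in controls (SD, n = 3 each) stood in a ratio of 3.94. The fit on reads put the rise at 3.57-fold (log2 1.84, SE 0.43, limma-voom adjusted p = 0.0367), and the FPKM fit gave 1.74 (limma adjusted p = 0.129). An antisense gene that overlaps KIF2C had 617 reads in sh-JMJD1C libraries and 460 in controls, so without strand the 2 genes cannot be told apart where they overlap.

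KIF22 (Kid) is a chromokinesin that binds DNA and pushes chromosome arms away from the poles. Its levels (chr16:29790719-29805385, plus strand) were 86.3, 224 and 149 scaled RPM in sh-JMJD1C 1 to 3, against 42.7, 53.7 and 35.7 in control 1 to 3. Again no control reached an sh-JMJD1C library, and again sh-JMJD1C 1 was the lowest of its group. KIF22 averaged 153 ± 69 in sh-JMJD1C libraries and 44 ± 9.07 in controls (SD, n = 3 each), a ratio of 3.48. The fitted rise on reads was 3.26-fold (log2 1.71, SE 0.43, limma-voom adjusted p = 0.0439), with 1.51 on FPKM (limma adjusted p = 0.144). With trends over transcript length and GC content removed, KIF22 was at 0.92 and did not pass (limma-voom adjusted p = 0.0928), nor with the length trend alone removed (1.43, adjusted p = 0.057). An overlapping antisense gene had 79 reads in sh-JMJD1C libraries and 33 in controls.

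The other chromokinesin, KIF4A, organises the midzone together with PRC1, and KIFC1 (HSET) is a minus-end motor that focuses spindle poles and gathers extra centrosomes. KIF4A (chrX:70290090-70420832, plus strand) had 72.1, 56.2 and 51.3 scaled RPM in sh-JMJD1C libraries, against 21.3, 22 and 31 in controls, without overlap, and its log2 fold change of 1.21 (SE 0.39) missed the threshold (limma-voom adjusted p = 0.0703). Its near-identical copy KIF4B, whose reads the counting could mix with those of KIF4A, had 9 reads in sh-JMJD1C libraries and 13 in controls. The KIF4A span also overlaps PDZD11 on the opposite strand, which had 322 reads in sh-JMJD1C libraries and 142 in controls. Without strand, reads of KIF4A and PDZD11 cannot be told apart where the genes overlap. KIFC1 (chr6:33391536-33409924, plus strand) had 114, 138 and 107 scaled RPM in sh-JMJD1C libraries, against 40.5, 59.4 and 57.7 in controls, also without overlap, at 1.14 (SE 0.36, limma-voom adjusted p = 0.0683).

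The other 7 mitotic motors tested did not pass. KIF11 (Eg5), which pushes the spindle poles apart, averaged 37.9 ± 10.9 scaled RPM in sh-JMJD1C libraries and 49.2 ± 26.7 in controls, at a log2 fold change of -0.22 (SE 0.51). KIF23 (MKLP1), the motor of the centralspindlin complex, averaged 40.5 ± 10.8 and 38.3 ± 18.7, at 0.03 (SE 0.44), and KIF15, which can stand in for KIF11, was at 0.28 (SE 0.63). KIF18A and KIF18B, which limit microtubule length at kinetochores and on astral microtubules, were at -0.29 (SE 0.51) and 0.70 (SE 0.47). The cytokinesis motors KIF20B and KIF14 had negative estimates, -1.30 (SE 0.76) and -1.17 (SE 0.68), on few reads: KIF20B had 6.81, 5.48 and 33.7 scaled RPM in sh-JMJD1C 1 to 3, against 36.3, 11 and 51.8 in control 1 to 3. The groups overlapped for all 7 of these motors, so the class held motors that rose beside motors whose difference was within the spread of the libraries. KIF2B, a relative of KIF2C, had no read in any library, which in control 1 allows up to 6.40 scaled RPM and in the other libraries up to between 0.733 and 2.11 (3 reads).

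**Figure D1:**
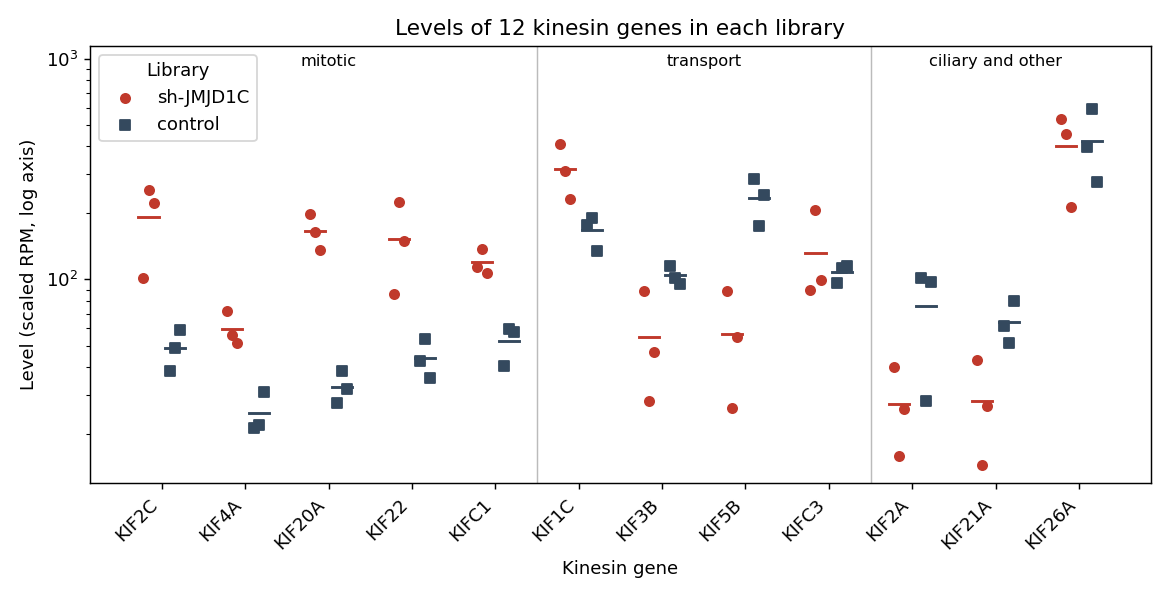
Level in scaled RPM (log axis) of 12 kinesins in each library, with sh-JMJD1C libraries as red circles left of the control libraries as dark squares, and horizontal lines at the group means. For KIF20A the 3 sh-JMJD1C libraries lie between 136 and 197 and the controls between 27.7 and 38.6, while KIF5B shows the opposite order, 26.1 to 88.6 against 174 to 286.

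KIF5B is the widely expressed heavy chain of conventional kinesin (kinesin-1) and carries mitochondria, lysosomes and many other cargoes. The gene (chr10:32009010-32056431, minus strand) had 88.6, 26.1 and 54.8 scaled RPM in sh-JMJD1C 1 to 3, against 286, 174 and 241 in control 1 to 3. All sh-JMJD1C libraries were below all controls: the highest of them had an interval of 75.2 to 104, and the lowest control one of 158 to 192. KIF5B averaged 56.5 ± 31.3 in sh-JMJD1C libraries and 234 ± 56 in controls (SD, n = 3 each) and fell by 2.17 on the log2 scale (SE 0.47, limma-voom adjusted p = 0.0286), with -2.16 on FPKM (SE 0.50, limma adjusted p = 0.122). With trends over transcript length and GC content removed, it was at -1.10 and did not pass (limma-voom adjusted p = 0.092). The neuronal heavy chains gave almost nothing, with 5 reads in all for KIF5A and none for KIF5C, so that KIF5B supplied nearly all kinesin-1 heavy chain reads in either group.

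KIF1C, a kinesin-3 motor that carries vesicles between the Golgi, the cell edge and podosomes, went the other way from KIF5B. It (chr17:4997948-5028401, plus strand) had 410.4, 309 and 232 scaled RPM in sh-JMJD1C libraries, against 177, 189.9 and 134 in controls, without overlap, at a log2 fold change of 0.90 (SE 0.37) that missed the threshold (limma-voom adjusted p = 0.131). Within a library, reads of KIF1C over reads of KIF5B stood at 4.63, 11.9 and 4.23 in sh-JMJD1C 1 to 3, against 0.619, 1.09 and 0.554 in control 1 to 3. This ratio does not depend on library scaling, and it was chosen after the values of both genes were seen. Of the other kinesin-3 motors, KIF1B, a carrier of mitochondria and synaptic vesicle precursors, was at -0.69 (SE 0.44), KIF13A, a carrier of recycling endosomes, at -1.07 (SE 0.50), KIF13B at -0.04 (SE 0.47), and KIF16B, which moves early endosomes, at -1.19 (SE 0.47, limma-voom adjusted p = 0.12). Of these 4, the groups did not overlap for KIF16B alone, at 27.2, 9.6 and 13.3 scaled RPM in sh-JMJD1C libraries, against 40.5, 28.9 and 41.1 in controls.

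Kinesin-2, the motor of intraflagellar transport and of pigment and late endosome movement, pairs KIF3A with KIF3B or KIF3C and binds KIFAP3. KIF3B (chr20:32277664-32335011, plus strand) had 88.6, 28.1 and 47.1 scaled RPM in sh-JMJD1C libraries, against 115, 102 and 95.8 in controls, with no overlap, at -1.06 (SE 0.44, limma-voom adjusted p = 0.134). KIF3A was at -1.53 (SE 0.65) on 28 reads in sh-JMJD1C libraries and 139 in controls, the groups touching at 9.13 and 8.95 scaled RPM, and KIFAP3 was at -0.91 (SE 0.54). None of these passed the threshold, although all 3 had negative estimates. KIF3C had 20 reads in sh-JMJD1C libraries and 9 in controls, too few to test. KIF17, which moves cargo in cilia and dendrites, averaged 8.96 ± 7.21 scaled RPM in sh-JMJD1C libraries and 8.4 ± 3.45 in controls, and the minus-end motor KIFC2 was at -0.65 (SE 0.61). The minus-end motor KIFC3, which works at cell junctions and the Golgi, averaged 132 ± 64.7 in sh-JMJD1C libraries and 108 ± 10.5 in controls, at 0.17 (SE 0.40), and its sign turned negative without sh-JMJD1C 2 (-0.16) and under scaling to library totals (-0.20).

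Among the ciliary and other kinesins, 0 of 7 passed on reads with limma-voom, where 5.52% of all genes passed. On FPKM 0 of 6 passed with limma, where 0.196% of all genes did. An unadjusted p below 0.05 was found for 2 of 7 on reads and 0 of 6 on FPKM, beside 30.8% and 20.3% of all genes. In a class of this size these counts by themselves say nothing about the class. KIF26A, a kinesin without ATPase activity, had the highest level per length in controls, at 59.8 scaled RPM per kb of its longest transcript in sh-JMJD1C libraries and 62.7 in controls. Its levels of 534, 456 and 213 scaled RPM in sh-JMJD1C libraries, against 397, 592 and 275 in controls, overlapped fully (log2 fold change -0.12, SE 0.45; 0.48 with the length trend removed and 0.30 without sh-JMJD1C 3). KIF2A, which trims microtubule minus ends in spindles and neurites, had 40.3, 15.8 and 26 scaled RPM in sh-JMJD1C libraries, against 102, 28.1 and 97.5 in controls, at -1.26 (SE 0.57, limma-voom adjusted p = 0.158). Its close relative KIF2C had risen, so that reads of KIF2C over reads of KIF2A stood at 2.54, 16 and 8.51 in sh-JMJD1C libraries, against 0.375, 1.74 and 0.607 in controls. This pair, too, was chosen after the values were seen. The KIF2A span overlaps DIMT1 on the opposite strand (61 reads in sh-JMJD1C libraries, 212 in controls) and IPO11 on the same strand (110 and 159). KIF21A, which slows microtubule growth at the cell cortex, had 43.1, 14.4 and 26.7 scaled RPM in sh-JMJD1C libraries, against 61.8, 51.6 and 79.7 in controls, without overlap, at -1.29 (SE 0.46, limma-voom adjusted p = 0.0932). KIF21B, a relative of KIF21A, was at -0.25 (SE 0.44), KIF24, which represses cilium formation, at 0.40 (SE 0.46), the sperm and cilium motor KIF9 at -0.07 (SE 0.54) and KIF26B at -0.61 (SE 0.68). KIF7, the ciliary regulator of Hedgehog signalling, had 27 reads in sh-JMJD1C libraries and 25 in controls, and its relative KIF27 had 4 reads in sh-JMJD1C libraries and 35 in controls. KIF6 and KIF12 had no read, KIF19 had 2, KIF25 had 1 and the neuronal transport motor KIF1A had 2 in all 6 libraries together.

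**Figure D2:**
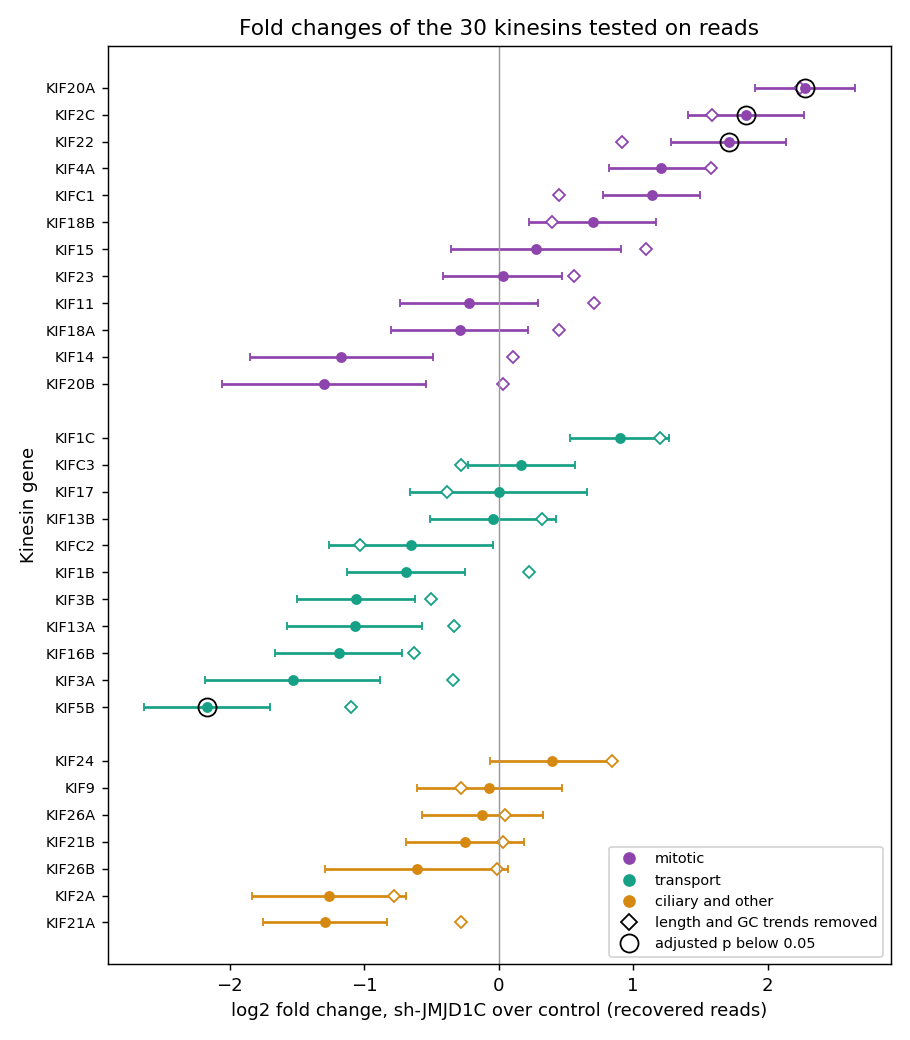
Log2 fold change, sh-JMJD1C over control, of the 30 kinesins tested on recovered reads, grouped by role (purple mitotic, green transport, orange ciliary and other), with bars of 1 SE. Rings mark the 4 genes that passed at an adjusted p below 0.05, and open diamonds give the value after trends over transcript length and GC content were removed; after that step all 12 mitotic points lie above 0.

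By class, the median log2 fold change on reads was 0.49 over 12 mitotic kinesins tested, -0.69 over 11 transport kinesins and -0.25 over 7 ciliary and other kinesins, beside -0.08 over all genes tested and -0.11 over protein-coding genes. On FPKM the medians were 0.36 (12 genes), -0.72 (10 genes) and -0.17 (6 genes), beside -0.13 over all genes tested. With KIF2A counted as mitotic, an alternative chosen after its values were seen, the mitotic median was 0.28 on reads and 0.15 on FPKM. The groups did not overlap in scaled RPM for 10 of 30 kinesins, close to the 34.5% of all genes with at least 60 reads, so the count by itself says nothing about the family. By direction, 5 of 12 mitotic kinesins were higher without overlap and 0 lower, and 3 of 11 transport kinesins were lower and 1 higher, beside 17.3% of all genes higher and 17.2% lower. Scaled to library totals instead, where the median of all genes moved to -0.52, the mitotic median was 0.04 and the transport median -1.19; the difference between the classes kept its sign.

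Summed over the class, mitotic kinesins had 808, 972 and 881 scaled RPM in sh-JMJD1C 1 to 3, against 356, 353 and 514 in control 1 to 3. Transport kinesins summed to 979, 698 and 612 scaled RPM in sh-JMJD1C libraries, against 1083, 865 and 916 in controls. The mitotic sums did not overlap between the groups and the transport sums did, and the whole family came to 2165 ± 343 in sh-JMJD1C libraries and 1982 ± 58.6 in controls (SD, n = 3 each), a difference within the spread. The ratio of mitotic to transport reads, which needs no scaling between libraries, was 0.826, 1.39 and 1.44 in sh-JMJD1C 1 to 3, against 0.329, 0.408 and 0.561 in control 1 to 3. The ratio was above every control in each sh-JMJD1C library, least so in sh-JMJD1C 1. It does not remove a trend over transcript length, in which the classes differ. The median longest transcript was 3970 nucleotides over the mitotic kinesins tested on reads and 6103 over the transport kinesins. The difference in the mitotic sum lay in the 5 members whose groups did not overlap (KIF20A, KIF2C, KIF22, KIFC1 and KIF4A), which together came to 690 ± 134 in sh-JMJD1C libraries and 203 ± 28.1 in controls, while the other 9 mitotic members came to 197 ± 52.8 and 205 ± 85.4 (SD, n = 3 each). The 5 were picked by their lack of overlap in these same values. The split therefore describes the sum and is no separate evidence of a rise.

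**Figure D3:**
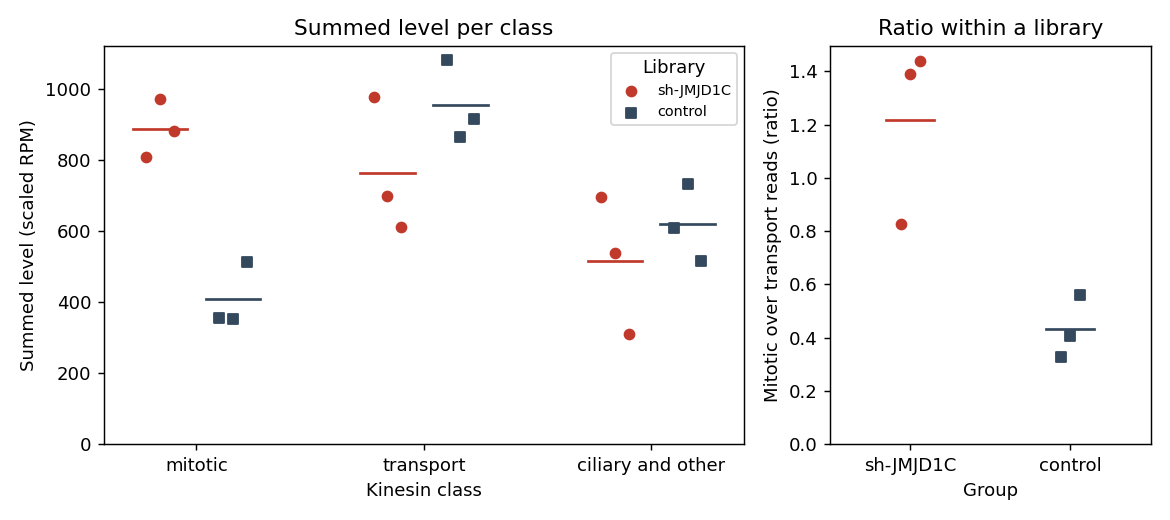
Left, summed level in scaled RPM of each kinesin class in each library (sh-JMJD1C, red circles; control, dark squares; lines, group means). Right, ratio of mitotic to transport kinesin reads within each library, 0.826 to 1.44 in sh-JMJD1C libraries against 0.329 to 0.561 in controls.

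By level per length, KIF26A, KIF5B and KIFC3 led the family in controls, at 62.7, 39.8 and 31.5 scaled RPM per kb of longest transcript. In sh-JMJD1C libraries KIF2C (65), KIF22 (61.1) and KIF26A (59.8) led, followed by KIF20A (51.7) and KIFC1 (44.2), and KIF5B stood at 9.61. Only differences of KIF5B, KIF2C, KIF22 and KIF20A between the groups passed the test on reads, and the order among neighbours within a group was not tested.

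Fold changes in the family went with transcript length and base composition, and so did those of all protein-coding genes. Over the 30 kinesins, the log2 fold change on reads had a Pearson correlation of -0.50 with the length of the longest transcript (log2) and 0.41 with its GC content, given as a description, since all genes share the same 6 libraries; over 10211 protein-coding genes the values were -0.50 and 0.54. Among the 12 mitotic kinesins the values were -0.82 and 0.76, with the short transcripts of KIF20A, KIF2C and KIF22 (3201, 2955 and 2505 nucleotides; 48.4%, 50.4% and 58.9% GC) at the high end and those of KIF20B and KIF14 (6419 and 7274 nucleotides; 34.2% and 38.3% GC) at the low end. With trends over length and GC content removed in each library, all 12 mitotic kinesins had a positive fold change (median 0.63) and 8 of 11 transport kinesins a negative one (median -0.34). These counts depend on the classes: KIF2A, placed among the ciliary and other kinesins although it also works in spindles, was at -0.78 in that fit, and with it 12 of 13 were positive (median 0.56). In that fit KIF20A (2.24), KIF2C (1.59), KIF4A (1.58) and KIF1C (1.20) rose (limma-voom, adjusted p below 0.05, passed by 6.74% of all genes, 3.65% upward and 3.09% downward), whereas KIF22 (0.92, adjusted p = 0.0928) and KIF5B (-1.10, adjusted p = 0.092) did not pass. With the length trend alone removed, KIF20A, KIF2C, KIF4A and KIF1C also rose and KIF5B fell by 1.69 (limma-voom adjusted p = 0.0463), where 3.42% of all genes passed (2.34% upward and 1.08% downward). There the classes were less uniform: 9 mitotic kinesins were positive and 3 negative (median 0.75). Of the transport kinesins 5 were positive and 6 negative (median -0.46), and the ciliary and other median was 0.27.

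**Figure D4:**
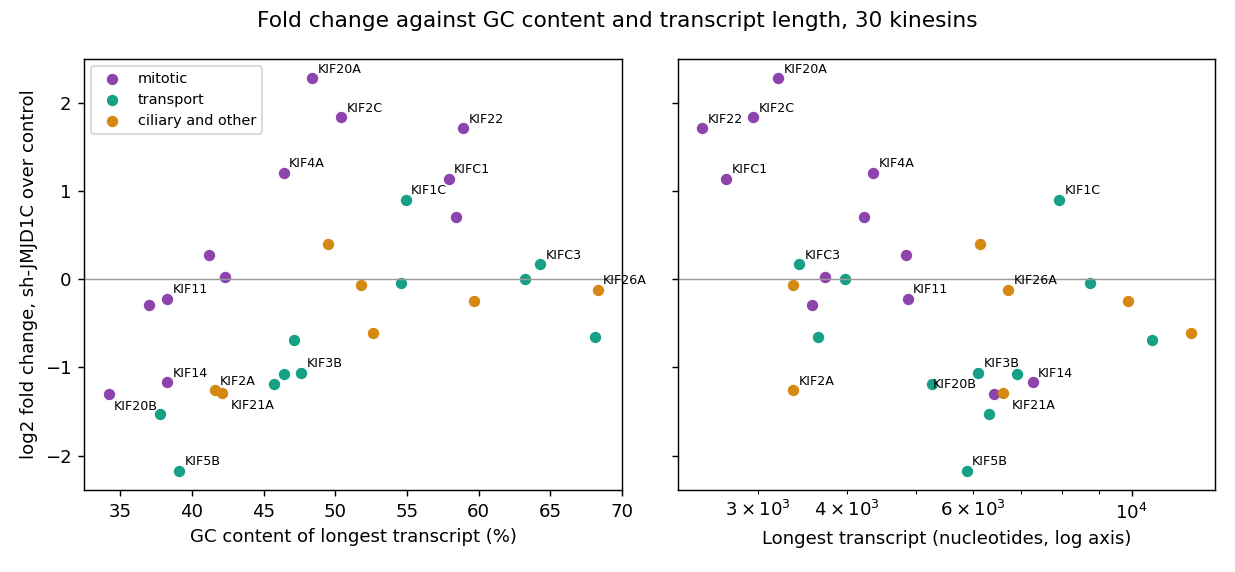
Log2 fold change on reads, sh-JMJD1C over control, of 30 kinesins against the GC content of the longest transcript (left, %) and its length (right, nucleotides, log axis), coloured by role. The points rise with GC content (Pearson 0.41) and fall with length (Pearson -0.50), and KIF20A is the highest point in both panels.

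Each of the 4 calls on reads rested on most of the libraries. With each library left out in turn, KIF20A still passed in 3 of 6 fits (log2 fold change 2.14 to 2.43) and was lost without sh-JMJD1C 2 (adjusted p = 0.0527), control 1 (0.0724) or control 3 (0.0647), all with limma-voom. KIF2C (1.62 to 2.23), KIF22 (1.42 to 2.09) and KIF5B (-2.55 to -1.67) passed in 2 of 6 each, those without sh-JMJD1C 1 or without control 2, and were lost without sh-JMJD1C 2, sh-JMJD1C 3, control 1 or control 3. The calls over all 11877 genes changed as well, from 441 up and 215 down with every library to 28 and 3 without sh-JMJD1C 2. They were 78 and 19 without sh-JMJD1C 3, 36 and 3 without control 1, and 29 and 11 without control 3. They were 1668 and 666 without sh-JMJD1C 1, and 616 and 672 without control 2. Without both libraries numbered 1, the shallow control 1 and the sh-JMJD1C library with little RN7SL, the same 4 genes passed, where 7.54% of all genes did (6.65% upward and 0.884% downward). The mitotic median then shrank to 0.15 on reads, with 7 positive and 5 negative, and to 0.10 on FPKM. The transport median on reads was -0.94 there, with 3 positive and 8 negative. In columns that the authors computed on 10% to 100% of each library's reads, the 2 groups did not overlap for any of the 4 genes at any share. These columns hold reads of the same 6 libraries, and the genes were chosen by their difference in the full libraries. The shares are therefore no separate test of the 4 calls.

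Several genes that work with the mitotic kinesins rose as well. Of 30 spindle partners, 8 rose and 0 fell on reads (limma-voom; median 0.65, 11, or 36.7%, with an unadjusted p below 0.05, beside 30.8% of all genes), where 3.71% of all genes rose; on FPKM 0 of 29 passed with limma, and 9 (31%) had an unadjusted p below 0.05, beside 20.3% of all genes. The 8 were the chromosomal passenger genes AURKB (1.93), BIRC5 (2.69) and CDCA8 (1.54), the mitotic kinases AURKA (2.01) and PLK1 (2.39), the spindle assembly factor TPX2 (1.43), the centralspindlin subunit RACGAP1 (1.82) and the kinetochore protein ZWINT (1.58). On reads, 0 spindle partners passed without sh-JMJD1C 2, control 1 or control 3, 1 without sh-JMJD1C 3, 4 with library totals and 5 with the length trend removed. With length and GC trends removed AURKB (0.69, limma-voom adjusted p = 0.182), CDCA8 (1.05, adjusted p = 0.057) and ZWINT (adjusted p = 0.0515) did not pass. In the fit reported on reads, 9 of the 30 partners had a negative estimate. Of the 11 with an unadjusted p below 0.05, NUF2 (-1.42, limma-voom unadjusted p = 0.0467) and CENPF (-1.02, unadjusted p = 0.0478) were lower. BIRC5, or survivin, averaged 219 ± 110 scaled RPM in sh-JMJD1C libraries and 28.3 ± 16 in controls. RACGAP1 rose to 158 ± 26.3 in sh-JMJD1C libraries, against 43.1 ± 19.3 in controls, while its motor partner KIF23 did not pass, and PRC1, the midzone partner of KIF4A, was at 0.56 (SE 0.34). CENPE, a kinetochore kinesin whose symbol lies outside the family rule, averaged 8.33 ± 6.49 in sh-JMJD1C libraries and 18.4 ± 11.2 in controls, at -1.10 (SE 0.77). Of 10 proliferation markers, 4 rose on reads with limma-voom (CCNB1, AURKA, AURKB and PLK1) and 0 fell, where 3.71% of all genes rose. AURKA, AURKB and PLK1 are also spindle partners. On FPKM 0 of 10 markers passed with limma, where 0.196% of all genes did. An unadjusted p below 0.05 was found for 4 (40%) in each fit, beside 30.8% of all genes on reads and 20.3% on FPKM. Without sh-JMJD1C 2, control 1 or control 3, 0 of these markers passed on reads, and 1 did without sh-JMJD1C 3 or with the length trend removed. MKI67 averaged 363 ± 338 in sh-JMJD1C libraries and 349 ± 69.2 in controls, and TOP2A 136 ± 68.8 and 137 ± 78. The part of cell cycle composition in the kinesin values was not tested.

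Of 19 kinesin light chains, adaptors and cargo factors tested, 0 passed on reads with limma-voom, where 5.52% of all genes passed. On FPKM 0 passed with limma, where 0.196% of all genes did. In a list of this size, 0 calls by itself says nothing about the list. An unadjusted p below 0.05 was found for 4 (21.1%) on reads, beside 30.8% of all genes. On FPKM it was found for 1 (5.26%), beside 20.3% of all genes. The median on reads was -0.44. KTN1, the kinesin receptor kinectin, had 53.4, 43.2 and 95.5 scaled RPM in sh-JMJD1C libraries, against 275, 108 and 241 in controls, at -1.65 (SE 0.46, limma-voom adjusted p = 0.0547). The light chain gene KLC3 was at 1.58 (SE 0.57) and the mitochondrial adaptor RHOT1 at -1.25 (SE 0.54), while the main light chains KLC1 and KLC2 were at -0.52 (SE 0.38) and 0.23 (SE 0.42). Of 25 subunits and adaptors of dynein and dynactin, the motor that runs opposite to most kinesins, 1 rose on reads with limma-voom, the dynactin subunit DCTN3 (2.41, adjusted p = 0.0472), and 0 fell, with a median of -0.23, where 3.71% of all genes rose; on FPKM 0 of 25 passed with limma (5, or 20%, with an unadjusted p below 0.05). DCTN3 did not pass with the length trend removed (2.33, limma-voom adjusted p = 0.0514) or with length and GC trends removed (2.13, adjusted p = 0.0513), and without sh-JMJD1C 2, sh-JMJD1C 3, control 1 or control 3 no gene of this list passed; 7 did without sh-JMJD1C 1. The dynein heavy chain DYNC1H1 averaged 848 ± 472 scaled RPM in sh-JMJD1C libraries and 1002 ± 93.9 in controls, at -0.38 (SE 0.43).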

How the data were processed

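The authors deposited 1 table of FPKM values per library, with columns on rising shares of its reads, per the file headers; the last column, the full library, was used. The submitters' processing notes name Bowtie 0.12.2 and hg38, with no role given. No counting tool, annotation or strand setting is named in them. Names, lengths and coordinates came from GENCODE release 29 (hg38, counted from 1).

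Whole reads were recovered from FPKM, gene length and library total. The sum of a gene's transcript lengths was kept where values below 1000 reads then lay within 0.05 of a whole number. It was kept for 93.9% of 29280 detected genes. For the rest, a length was searched for that met the same condition. That 100.0% of these values lay within 0.05 of a whole number therefore follows from the method and is no check of it. Depth was 544442 to 2960454 reads per library, and 3 reads, the limit that a count of 0 allows, were 1.01 to 5.51 RPM before scaling. Intervals are Clopper-Pearson (95%); intervals and floors cover counting error only.

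FPKM were divided by median-ratio factors, and log2(scaled FPKM + 0.5) of genes averaging at least 0.5 was fitted with limma 3.58.1 (trend option, R 4.3.3) on group alone, over 17869 genes; fold changes on this scale understate the change of low genes. Recovered reads of genes with at least 60 reads were fitted with limma-voom, over 11877 genes. Tests were two-sided, Benjamini-Hochberg adjusted over all genes tested, at 0.05. Trends over transcript length and GC content were removed by lowess (span 0.3). Both fits were checked on simulated data. Values in every library are given for kinesins that passed in either fit, mitotic and transport kinesins without overlap in scaled FPKM and past 1 on the log2 scale, and the 3 highest per length of each class; KIF16B and KIF20B, and the partners CENPE, PRC1, KIFAP3, KLC1, KLC2, DYNC1H1, MKI67 and TOP2A, were added after their values were seen. The family, its classes and the partner lists were chosen with earlier results of these data known. Promoters came from RefSeq (GRCh38.p14).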

Additional observations from a re-analysis of the deposited data

How the results depend on the processing

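On FPKM, kinesin calls with limma numbered 0 in the fit reported, against 4 with protein-coding genes only, 4 with limma-voom on recovered reads, 1 with array weights and 0 to 3 with each library left out (3 without sh-JMJD1C 1). Over all genes on FPKM, 11 rose and 24 fell in the fit reported. The counts were 550 and 366 with protein-coding genes only, 62 and 57 with array weights, and 522 and 173 without sh-JMJD1C 1. On reads the 4 calls became 3 with library totals, 5 with the length trend removed, 13 with the replicate number as a block and 0 to 9 with each library left out: 9 without sh-JMJD1C 1, 6 without control 2, 1 without sh-JMJD1C 3 and 0 without sh-JMJD1C 2, control 1 or control 3. The calls over all 11877 genes moved too: 2351 rose and 1909 fell with the block, and 1668 and 666 without sh-JMJD1C 1. Without sh-JMJD1C 2 they were 28 and 3, without control 1 36 and 3, and without control 3 29 and 11. The kinesin counts in these settings therefore say nothing particular about the family. Same-numbered libraries deviated together by 0.013, 0.142 and 0.228 for numbers 1 to 3, and not every library correlated best with its own number, so the block pairs them by number only; on FPKM the block gave 0 kinesin calls. The mitotic median on FPKM was 0.84 among genes averaging at least 1, and the transport median -0.29 with no filter and -0.27 with quantile normalization; on reads library totals gave 0.04 and -1.19. With library totals 311 genes rose and 884 fell over all genes, with quantile normalization 533 and 487, with length and GC trends removed 434 and 367, against 441 and 215 in the fit reported; KIF21A passed with library totals, where KIF2C and KIF22 did not. JMJD1C was at -1.82 with protein-coding genes only (limma adjusted p = 0.0208) and -2.49 on reads, where its adjusted p was 0.0574 with length and GC trends removed (-1.20), and -2.91 to -1.92 with each library left out, past the threshold in 2 of 6. KIFC3, at 0.12 on FPKM and 0.17 on reads (-0.15 to 0.32 and -0.16 to 0.40 with each library left out), changed sign to -0.15 on deposited FPKM and without sh-JMJD1C 2, and on reads to -0.20 with library totals, -0.14 with quantile normalization, -0.28 with length and GC trends removed and -0.16 without sh-JMJD1C 2. KIF26A, at -0.16 on FPKM and -0.12 on reads (-0.45 to 0.28 and -0.47 to 0.30 with each library left out), changed sign to 0.28 without sh-JMJD1C 3 and 0.11 without control 2, and on reads to 0.48 with the length trend, 0.05 with length and GC trends removed, 0.30 without sh-JMJD1C 3 and 0.14 without control 2. The cause of these changes was not tested. Control 1, with the fewest reads, sets the limit for rare kinesins.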
